A study of Mus musculus with 12 samples.

Results

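The proteasome subunit genes were taken as every gene symbol that begins with Psma, Psmb, Psmc, Psmd or Psme followed by a digit, which gave 43 of the 21490 symbols in the table. Of these, 42 encode proteasome subunits, their activators or their assembly chaperones. The remaining match, Psmc3ip, shares the prefix only and encodes a meiotic recombination factor. The 43 comprised 7 alpha genes and 7 beta genes of the constitutive core particle (20S), 3 interferon-inducible beta genes, 6 ATPase and 11 non-ATPase genes of the regulatory particle (19S), 3 chaperone genes for assembly of the 19S base, 4 activator genes, the testis alpha gene Psma8 and Psmc3ip. To follow transcription through the day, the study sequenced nascent RNA (Nascent-Seq) from the livers of wild-type C57BL/6 male mice aged 3 to 6 months, which carried no allele or drug. The mice were kept in 12 hr of light and 12 hr of darkness and taken at Zeitgeber time (ZT, hr after lights on) 0, 4, 8, 12, 16 and 20, with 2 replicates at each of the 6 time points and 12 libraries in all. The liver was used whole, so nuclei of every liver cell type contributed, and fewer cells of a type cannot be told apart from less RNA per cell. The signal of a gene is its coverage in reads per base pair (rpbp) over merged exons, which scales it to their length. It is not corrected for base composition, mapping or overlapping genes.

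The proteasome is the protease that degrades most short-lived and misfolded proteins marked with ubiquitin. Its core particle is a barrel of stacked alpha and beta rings with the active sites inside, and the regulatory particle binds ubiquitin chains, removes them and threads the substrate into the barrel with a ring of ATPases. Subunits are needed in fixed proportions in the finished complex, and in mammals the transcription factor Nfe2l1 is known to raise the genes together when proteasome activity is short. Interferon gamma induces replacement beta subunits that give the immunoproteasome, which produces peptides for antigen presentation.

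The 3 genes called rhythmic below were Psma4, Psmc2 and Psmd11, and the 250 bases before their starts are shown first because motifs recognized by clock and housekeeping factors were searched for there. The windows are RefSeq promoters (from GRCm38.p6) matched exactly to mm9, where Psma4 is at chr9:54798416-54798665, Psmc2 at chr5:21290843-21291092 and Psmd11 at chr11:80241867-80242116, all on the plus strand. Capitals mark an E-box (CACGTG, the motif bound by CLK:BMAL1) in Psma4 and a core motif of ETS factors (CCGGAAG, here read on the other strand) in Psmc2 and Psmd11.
Psma4: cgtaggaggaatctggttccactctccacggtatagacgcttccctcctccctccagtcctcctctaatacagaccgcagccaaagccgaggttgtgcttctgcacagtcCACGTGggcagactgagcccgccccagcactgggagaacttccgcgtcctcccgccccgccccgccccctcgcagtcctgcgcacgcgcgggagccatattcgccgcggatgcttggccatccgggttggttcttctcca
Psmc2: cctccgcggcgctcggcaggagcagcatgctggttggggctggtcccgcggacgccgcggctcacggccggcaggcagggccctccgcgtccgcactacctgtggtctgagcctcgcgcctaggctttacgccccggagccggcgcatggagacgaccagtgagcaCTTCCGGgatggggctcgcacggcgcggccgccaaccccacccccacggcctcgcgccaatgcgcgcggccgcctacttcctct
Psmd11: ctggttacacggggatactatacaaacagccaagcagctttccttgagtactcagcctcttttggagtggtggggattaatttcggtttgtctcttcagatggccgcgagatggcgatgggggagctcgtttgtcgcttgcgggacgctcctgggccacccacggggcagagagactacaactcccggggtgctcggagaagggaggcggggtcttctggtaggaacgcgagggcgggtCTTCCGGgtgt

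The E-box of Psma4 began 140 bases before its start. The ETS motif began 84 bases before the Psmc2 start at which its window ends and 11 bases before the start of Psmd11. RefSeq windows were found for 36 of the 43 genes, 39 windows in all, and both strands of their 250 upstream bases were searched. An E-box was present in 4 of the 39 windows (Psma4, Psmb10, Psmd9 and Psme3), against 6.02% of all 32851 windows of the same length. The ETS motif CCGGAAG was present in 13 of 39, belonging to 12 genes (Psma6, Psmc1, Psmc2, Psmc3ip, Psmc6, Psmd2, Psmd4, Psmd6, Psmd11, Psmd12, Psme3 and Psme4), against 6.91% of all windows. The core of the element bound by Nfe2l1 and its relatives (TGACNNNGC) was present in 5 of 39 (Psmb5, Psmb6, Psmc6, Psmd9 and Psmd12), against 10.2%, and the CCAAT box in 14 of 39, against 33.8%. A match is only a run of letters in this window, and binding was not measured here. The letters of none of these motifs contain another.

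All 43 genes had a signal in at least 1 library, with mean levels over the 12 libraries from 0.242 rpbp (Psma8) to 10.4 rpbp (Psmd1). Their median was 4.66 rpbp, against 1.77 rpbp for all symbols, and 38 of the 43 lay above that value. The 31 constitutive core and regulatory genes spanned 15.0-fold. The 17 regulatory genes lay within 3.62-fold of each other, from Psmd13 at 2.87 to Psmd1 at 10.4 rpbp, with a median of 5.33 rpbp. The 14 core genes spanned 11.9-fold, from Psmb5 at 0.692 to Psmb1 at 8.22 rpbp, with a median of 4.27 rpbp, and 4.38-fold without Psmb5. Exon coverage also depends on how reads mapped, and uniquely mapped reads can miss sequence shared with a pseudogene. Psmb5, Psmb6 and Psmb7 each have 1 pseudogene named after them in the annotation. Copies under other names were not counted for any member, and an effect on these levels was not tested.

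**Figure D1:**
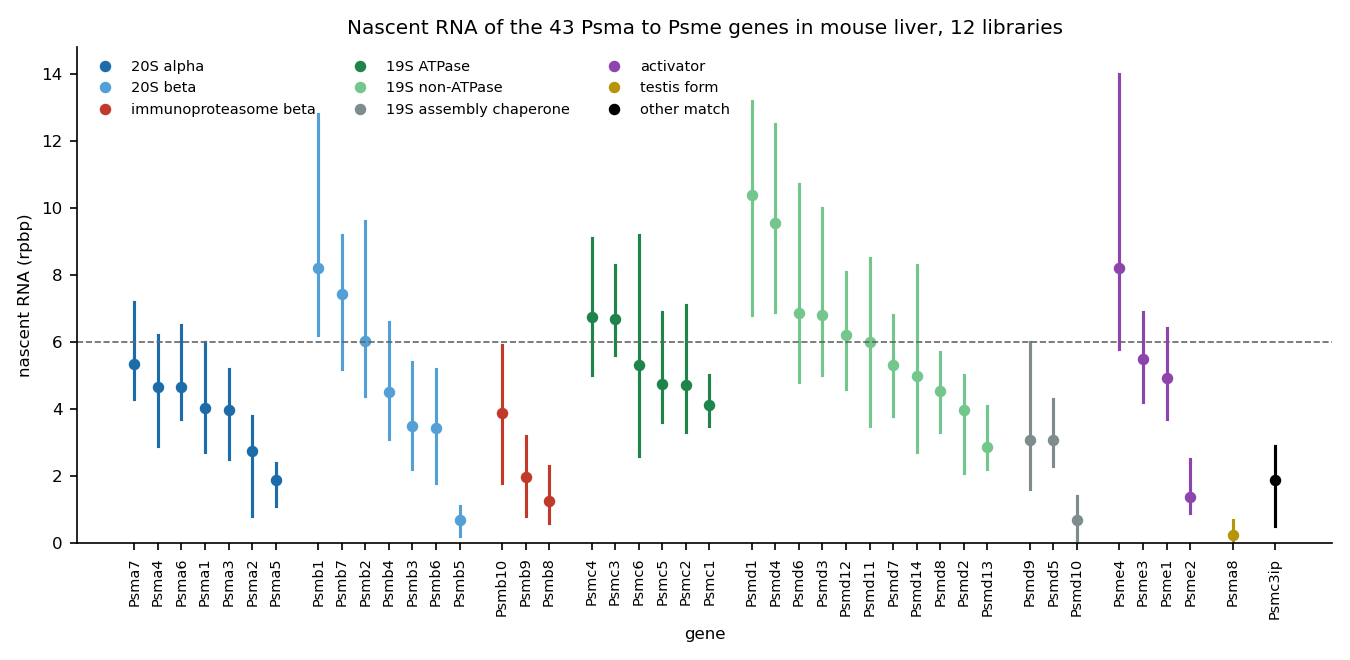
Mean nascent RNA of each of the 43 genes in rpbp (points) with the lowest and the highest of its 12 libraries (bars), grouped by class and ordered by mean. Psmd1 at 10.4, Psmd4 at 9.53, and Psmb1 and Psme4 at 8.22 rpbp lay highest, Psmb5 lay far below the other core genes at 0.692 rpbp, and the dashed line marks the 6 rpbp that a gene had to exceed in at least 1 library to be tested.

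A gene was tested when it exceeded 6 rpbp in at least 1 library. This held for 23 of the 43 genes: 3 alpha genes (Psma4, Psma6 and Psma7), 4 beta genes (Psmb1, Psmb2, Psmb4 and Psmb7), 5 ATPase genes (Psmc2 to Psmc6), 8 non-ATPase genes (Psmd1, Psmd3, Psmd4, Psmd6, Psmd7, Psmd11, Psmd12 and Psmd14) and 3 activator genes (Psme1, Psme3 and Psme4). Psma4 was the nearest inside with a highest value of 6.2 rpbp, and Psma1 and Psmd9 at 6.0 and Psmb10 at 5.9 rpbp were the nearest outside. The 3 genes Psmb1, Psmd1 and Psmd4 exceeded 6 rpbp in every library, whereas 6 genes did so in 1 library only (Psma4, Psma6, Psmb4, Psmc2, Psmc5 and Psme1).

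Rhythm was measured as F24, the share (0 to 1) of a gene's variance over the 12 values that lies in a 24-hr cosine, and its p was the one-sided share of 100000 permuted orders that reached the same F24. The call of a rhythm asked for p under 0.05, for F24 above 0.45 and for a library maximum more than 1.5 times the minimum. Of the 23 tested genes 3 were called, Psma4, Psmc2 and Psmd11, which is 13.0%, near the 15.2% of all 6284 tested symbols. All 3 also passed stricter limits for a strong rhythm (F24 over 0.6 and a wider ratio), which 6.38% of tested symbols passed. The median F24 of the 23 genes was 0.199, and 0.222 over all tested symbols. Because Psma4 and Psmc2 were tested through 1 library each, the call was repeated without the filter, where these 3 of 43 genes and 10.7% of 20756 symbols were called.

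Psma4, a subunit of the alpha ring, which forms the gate of the barrel, gave 5.5 and 5.3 rpbp at ZT0, 5.5 and 6.2 at ZT4, 5.0 and 5.3 at ZT8, 3.7 and 5.0 at ZT12, 3.1 and 2.9 at ZT16, and 4.2 and 4.2 at ZT20. Both replicates of ZT16 were the lowest of the 12, and all 6 libraries of ZT0, ZT4 and ZT8 were at or above both replicates of every later time point. The mean was 5.85 ± 0.495 rpbp at ZT4 and 3.00 ± 0.141 rpbp at ZT16 (SD, n = 2). F24 was 0.84 with a fitted maximum at ZT3.91 (permutation p = 0.00021, Benjamini-Hochberg adjusted p = 0.0432). Each replicate series alone, over all 720 orders of its 6 values, gave an exact p of 0.0333 for both series, where the smallest possible is 0.0167.

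Psmd11, a lid subunit that joins the regulatory particle to the core, gave 8.5 and 7.1 rpbp at ZT0, 6.6 and 7.0 at ZT4, 4.5 and 4.9 at ZT8, 3.5 and 5.0 at ZT12, 5.5 and 6.2 at ZT16, and 6.8 and 6.2 at ZT20. Both ZT0 libraries were the highest, and the 4 libraries of ZT8 and ZT12 were the lowest. The mean went from 7.80 ± 0.990 rpbp at ZT0 to 4.25 ± 1.06 rpbp at ZT12 (SD, n = 2). F24 was 0.81 with a maximum at ZT23.4 (permutation p = 0.00045, adjusted p = 0.0514), and the series alone gave exact p = 0.0167 for replicate 1 and 0.133 for replicate 2.

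Psmc2, one of the ATPases of the ring that unfolds substrates, gave 4.7 and 7.1 rpbp at ZT0, 6.0 and 5.6 at ZT4, 4.1 and 4.5 at ZT8, 3.3 and 3.7 at ZT12, 3.6 and 4.2 at ZT16, and 4.7 and 5.0 at ZT20. The ZT4 libraries were both high, whereas those of ZT0 differed from each other by more than the other pairs did. The mean went from 5.90 ± 1.7 rpbp at ZT0 to 3.50 ± 0.283 rpbp at ZT12 (SD, n = 2). F24 was 0.73 with a maximum at ZT1.19 (permutation p = 0.00089, adjusted p = 0.0664), and the series alone gave exact p = 0.133 for replicate 1 and 0.0167 for replicate 2.

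**Figure D2:**
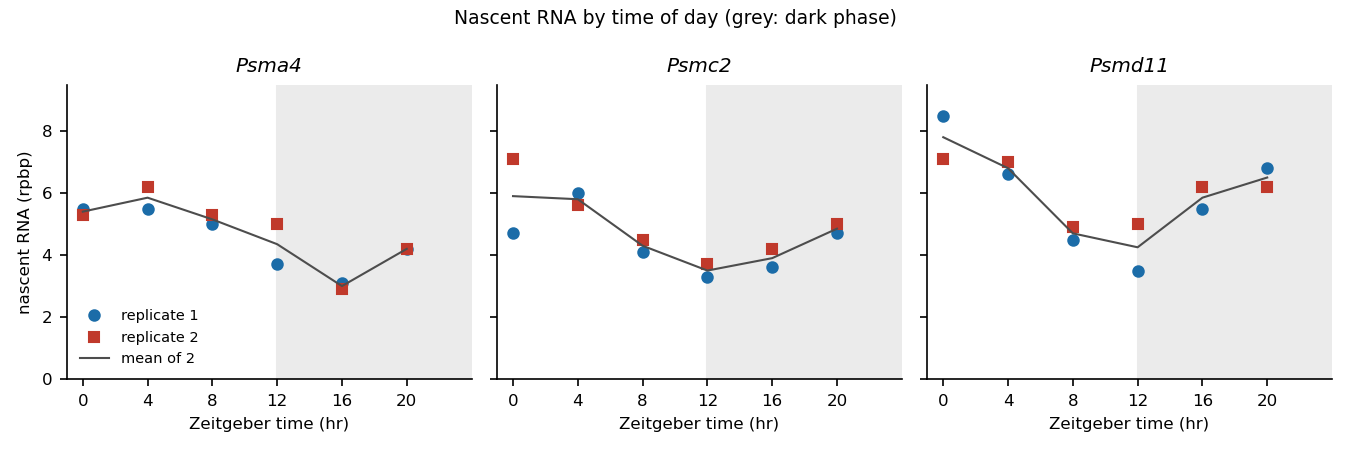
Nascent RNA of Psma4, Psmc2 and Psmd11 in rpbp against Zeitgeber time in hr, with each replicate as a point, the mean of 2 as a line and the dark phase in grey. Psma4 fell to 3.00 rpbp at ZT16, and Psmc2 and Psmd11 to 3.50 and 4.25 rpbp at ZT12.

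With the adjusted permutation p in the call, Psma4 remained of the 23 genes, and 0.668% of tested symbols passed. Psma4 was in the tested set through 1 library of ZT4, its highest time point, and its adjusted p holds for that set only. The moderated F-test of limma on the cosine terms called 0 of 23 genes after adjustment, against 2.59% of symbols, and gave an unadjusted p under 0.05 for 3 genes (Psma4, Psmc2 and Psmd11, adjusted p from 0.0753 to 0.102). Without ZT8 replicate 2, 7 of the 23 genes were called rhythmic, with Psmb7, Psmd1, Psmb2 and Psmd14 added, and 20.2% of symbols.

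Reads were counted without regard to strand, and 20 of the 43 genes overlap another gene in the annotation. Psma4 (chr9:54798666-54805837) overlaps AY074887 on the other strand, which had a mean of 6.95 rpbp and an F24 of 0.49 with a maximum at ZT5.43 (permutation p = 0.0533). The symbol C630028N24Rik ends 3376 bp upstream of Psma4. It had a mean of 21.3 rpbp, was called rhythmic itself (F24 0.68, maximum at ZT5.79, permutation p = 0.0023), and its part in the signal of Psma4 was not tested. Psmc2 (chr5:21291101-21309602) lies 117 bp from Dnajc2, which runs the other way and had a mean of 2.08 rpbp with an F24 of 0.26, and Psmd11 (chr11:80242117-80285635) lies 4913 bp from Cdk5r1. That gene had a mean of 0.975 rpbp, too low to be tested, and without the filter it was called rhythmic (F24 0.68, maximum at ZT20.9, permutation p = 0.0125).

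The other 20 tested genes had F24 from 0.034 (Psme4) to 0.43 (Psmb7). Psmb7, which carries the trypsin-like active site, gave 8.3 and 7.8 rpbp at ZT0, 7.3 and 7.0 at ZT4, 7.4 and 8.2 at ZT8, 5.2 and 6.0 at ZT12, 8.0 and 6.4 at ZT16, and 8.2 and 9.2 at ZT20. Its ZT12 libraries were the lowest of the 12, but it missed the call at permutation p = 0.0798. With values centred within the 1-lane and 2-lane libraries it was the fourth gene called, beside 19.2% of symbols.

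The fitted maxima of 20 of the 23 genes fell between ZT21 and ZT6, the end of the night and the early day, against 46.7% of tested symbols. The window was set after the values were seen, and most of these fits explained little of the variance. The count was 17 with libraries rescaled to equal medians (36.5% of symbols) and 16 without ZT12 replicate 1.

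**Figure D3:**
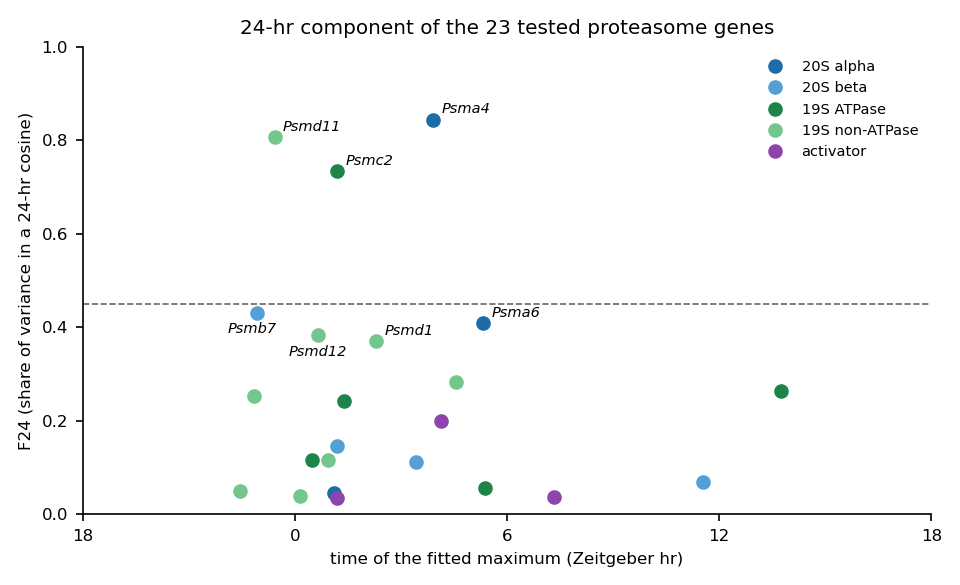
F24 against the time of the fitted maximum (Zeitgeber hr) for the 23 tested genes, coloured by class, with the limit of 0.45 dashed. Psma4 at 0.84, Psmd11 at 0.81 and Psmc2 at 0.73 stood above the limit, Psmb7 at 0.43 just below it, and Psmc5 and Psmb4 had maxima far from the rest at ZT13.7 and ZT11.5.

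A time course that is no cosine was looked for with limma, whose moderated F-test over the 6 time points was run on log2(rpbp + 1) and adjusted over all tested symbols. It called 0 of the 23 genes, against 7.65% of symbols, and 2 genes (Psma4 and Psmd11) had an unadjusted p under 0.05, against 27.6% of symbols. The smallest adjusted p was 0.107, for Psma4. Spread between time-point means made up 67.5% of the variance at the median of these genes and 63.3% at that of all tested symbols. Means of 2 libraries also differ through replicate spread alone, so this share is not the part due to time of day. The coefficient of variation over the 12 libraries was 0.212 at the median of these genes, against 0.252.

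Lights on was compared with lights off (ZT0 against ZT12). limma called 0 of the 23 genes, against 4.44% of symbols, and 4 had an unadjusted p under 0.05 (Psmd11, Psmc2, Psmb2 and Psmb7), against 18.4% of symbols. The log2 difference of Psmd11 was 0.76 ± 0.20 (SE, adjusted p = 0.0641) and that of Psmc2 0.60 ± 0.21 (adjusted p = 0.143). Of the 23 genes 18 had a higher mean at ZT0, with a median log2 difference of 0.23, where 47.1% of all tested symbols were higher at ZT0 with a median of -0.03. With rescaled libraries 19 of 23 were higher at ZT0, and without ZT12 replicate 1 the count was 15 and the median 0.08. In that library the tested genes had a median log2 deviation of -0.32 from their own means, against 0.02 in ZT12 replicate 2.

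For ZT4 against ZT16, limma called 0 of the 23 genes, against 2.1% of symbols, and 3 had an unadjusted p under 0.05 (Psma4, Psma6 and Psmc2), against 19.4% of symbols. Psma4 had the smallest p, with a log2 difference of 0.77 ± 0.18 (SE, adjusted p = 0.0599). The means of 17 of 23 genes were higher at ZT4, but so were those of 70.4% of all symbols, whose median log2 difference was 0.20. With libraries rescaled to equal medians, 9 of 23 were higher at ZT4 and Psma4 differed by 0.59. For ZT8 against ZT20, limma called 0 of the 23 genes, against 1.58% of symbols, none had an unadjusted p under 0.05, against 12.6% of symbols, and 10 of 23 were higher at ZT8 with a median log2 difference of -0.03.

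Replicates at ZT8 differed with the base composition of the genes. Exon GC content ranged from 36.2% (Psmc6) to 56.6% (Psme1) among the 43 genes, with a median of 49.5%. In ZT8 replicate 2, 18 of the 22 genes at or below that median exceeded their own mean over the libraries, and 5 of the 21 above it did, with median log2 deviations of 0.24 and -0.25. In ZT8 replicate 1 the deviations were 0.05 and -0.01. The same order was seen at ZT20 (0.13 and -0.0012 in replicate 1, 0.11 and -0.17 in replicate 2). It was also seen in ZT4 replicate 2 (0.05 and -0.02). The opposite order was seen at ZT12 (-0.38 and -0.09 in replicate 1, -0.03 and 0.18 in replicate 2). ZT16 had that opposite order too (-0.13 and 0.13 in replicate 1, -0.21 and -0.15 in replicate 2). So did ZT0 (0.0027 and 0.06 in replicate 1, 0.11 and 0.17 in replicate 2) and ZT4 replicate 1 (0.01 and 0.12). The trend was not particular to these genes. With all tested symbols of known GC content in 20 bins, the lowest and highest bins were compared. Their median log2 deviations were 0.69 and -0.52 in ZT8 replicate 2, and 0.06 and -0.08 in ZT8 replicate 1. In every library these bins had the same order as the proteasome genes.

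**Figure D4:**
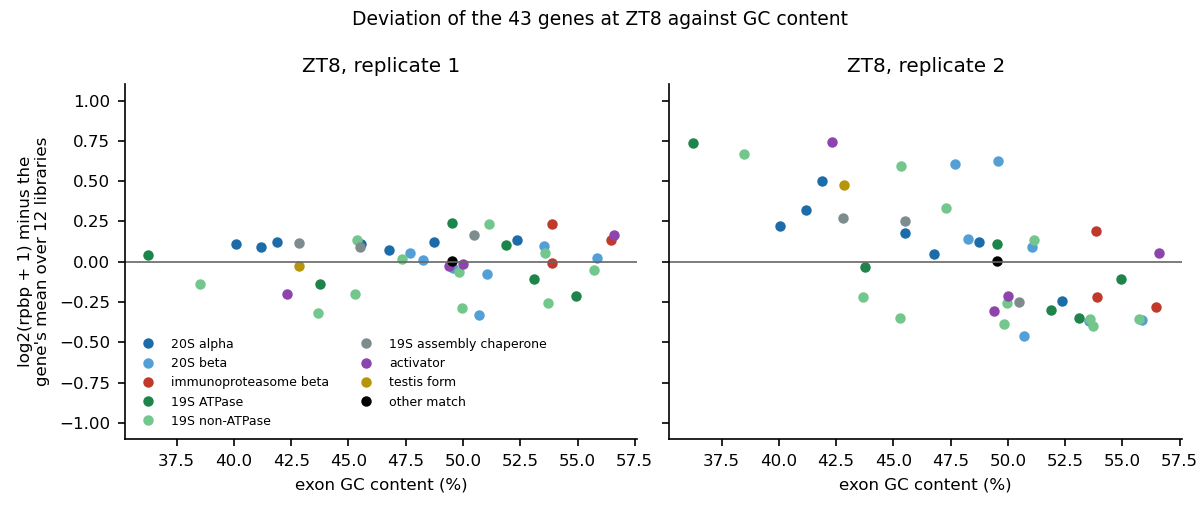
Deviation of each of the 43 genes from its own mean over the libraries, as log2(rpbp + 1), against exon GC content in percent, for both libraries of ZT8. In replicate 2, 18 of the 22 genes of lower GC content and 5 of the 21 of higher GC content lay above 0. Their medians were 0.24 and -0.25, and in replicate 1 the genes lay around 0.

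The members highest in ZT8 replicate 2 were of low or middle GC content. Psme4, the nuclear activator PA200 (42.3% GC), gave 7.4 and 9.7 rpbp at ZT0, 6.7 and 7.0 at ZT4, 6.8 and 14.0 at ZT8, 5.8 and 8.0 at ZT12, 6.3 and 6.6 at ZT16, and 8.8 and 11.5 at ZT20. Psmb1, a beta subunit without an active site (47.7% GC), gave 6.9 and 8.2 rpbp at ZT0, 8.0 and 8.6 at ZT4, 8.4 and 12.8 at ZT8, 6.3 and 6.2 at ZT12, 7.1 and 6.6 at ZT16, and 9.6 and 9.9 at ZT20. The second ZT8 library was thus the highest of the 12 for both, further from its replicate than at any other time point. Psmd14, the deubiquitinase of the lid (38.5% GC), gave 4.1 and 5.3 rpbp at ZT0, 4.7 and 4.5 at ZT4, 4.3 and 8.3 at ZT8, 2.7 and 4.2 at ZT12, 5.1 and 4.3 at ZT16, and 6.2 and 6.1 at ZT20. Neither Psme4, Psmb1 nor Psmd14 was called by any test with all 12 libraries, and replicates of Psme4 at ZT8 differed 2.06-fold. The called genes Psma4, Psmc2 and Psmd11 are of lower GC content (45.5%, 43.8% and 43.7%), with their lowest means at ZT16, ZT12 and ZT12. In ZT8 replicate 2 these genes deviated from their own means by a log2 of 0.18, -0.03 and -0.22. With the GC trend of each library removed, they were still called rhythmic, with F24 of 0.64, 0.55 and 0.50. None of them then passed the stricter limits.

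Psmd1, the large scaffold of the regulatory particle, had the highest mean signal of the members. It gave 9.9 and 11.6 rpbp at ZT0, 12.3 and 10.3 at ZT4, 10.4 and 13.2 at ZT8, 6.8 and 9.4 at ZT12, 9.3 and 8.9 at ZT16, and 11.3 and 11.2 at ZT20, with overlapping time points, and F24 was 0.37 (permutation p = 0.122). Htr2b, which overlaps it on the other strand, had a mean of 9.76 rpbp. Psmd4, a ubiquitin receptor, gave 11.1 and 11.1 rpbp at ZT0, 12.5 and 9.2 at ZT4, 7.7 and 6.9 at ZT8, 8.8 and 8.4 at ZT12, 11.3 and 10.0 at ZT16, and 9.4 and 8.0 at ZT20. Its ZT8 libraries were the lowest of the 12 (F24 0.25, permutation p = 0.268).

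Psmc4, the highest of the ATPase genes, gave 6.7 and 9.1 rpbp at ZT0, 7.7 and 7.4 at ZT4, 6.1 and 5.0 at ZT8, 5.8 and 7.4 at ZT12, 8.2 and 5.9 at ZT16, and 5.9 and 5.7 at ZT20. Psma7, the highest of the alpha genes, gave 4.4 and 7.2 rpbp at ZT0, 5.7 and 5.2 at ZT4, 5.9 and 4.3 at ZT8, 4.3 and 6.4 at ZT12, 5.2 and 4.9 at ZT16, and 5.6 and 4.9 at ZT20. For both genes the replicates of ZT0 spanned as much as the time points. Psmb4, the lowest of the tested beta genes and needed for assembly of the core, gave 4.4 and 5.1 rpbp at ZT0, 4.5 and 4.5 at ZT4, 4.8 and 3.2 at ZT8, 4.2 and 6.6 at ZT12, 5.9 and 3.8 at ZT16, and 3.9 and 3.1 at ZT20. Psma6, another alpha gene, gave 3.9 and 4.3 rpbp at ZT0, 6.5 and 5.7 at ZT4, 4.9 and 4.8 at ZT8, 3.8 and 5.3 at ZT12, 4.0 and 3.9 at ZT16, and 5.1 and 3.7 at ZT20. Its ZT4 libraries were the highest, and its log2 difference between ZT4 and ZT16 was 0.52 ± 0.21 (SE, adjusted p = 0.212). Psme1, the interferon-inducible activator PA28 alpha, gave 4.2 and 4.9 rpbp at ZT0, 6.4 and 5.0 at ZT4, 5.6 and 5.1 at ZT8, 3.7 and 4.8 at ZT12, 4.0 and 5.4 at ZT16, and 5.2 and 4.8 at ZT20. Its partner Psme2 was lower, from 0.9 to 2.5 rpbp, and was not tested. Psme3, the nuclear activator PA28 gamma, ranged from 4.2 to 6.9 rpbp with an F24 of 0.037.

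The summed signal of the 14 core genes ranged from 45.4 to 70.7 rpbp and that of the 17 regulatory genes from 78.4 to 115.9 rpbp. Their ratio was 0.596 ± 0.0240 at ZT0, 0.574 ± 0.0209 at ZT4, 0.686 ± 0.0310 at ZT8, 0.590 ± 0.0159 at ZT12, 0.562 ± 0.0246 at ZT16 and 0.668 ± 0.0355 at ZT20 (SD, n = 2). It was 0.643 to 0.708 in the 4 libraries of ZT8 and ZT20 and 0.544 to 0.613 in the other 8, without overlap. The libraries of ZT8 and ZT20 were those sequenced in 2 lanes, so time of day and lanes cannot be told apart. Among the core genes 10 of 14 had a higher mean in the 2-lane libraries, led by Psmb1 (10.2 against 7.24 rpbp). Among the regulatory genes 6 of 17 did, and Psmd4 was lowest against the others (8.0 against 10.3 rpbp). No single core or regulatory gene had all 2-lane libraries above, or all below, the others. The share of all symbols that were higher in the 2-lane libraries is not given here. Over the 7 core and 13 regulatory genes that were tested, the ratio was 0.499 to 0.562 in the 2-lane libraries and 0.442 to 0.486 in the others, and with the GC trend removed 0.512 to 0.602 and 0.441 to 0.477.

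The catalytic beta genes and their interferon-inducible partners were compared pair by pair. Psmb6, with the caspase-like site, gave 1.8 and 5.0 rpbp at ZT0, 3.0 and 2.4 at ZT4, 3.1 and 3.6 at ZT8, 2.5 and 3.7 at ZT12, 4.7 and 2.8 at ZT16, and 3.4 and 5.2 at ZT20. Its partner Psmb9 gave 3.2 and 2.8 rpbp at ZT0, 2.1 and 1.5 at ZT4, 2.4 and 2.3 at ZT8, 2.1 and 1.7 at ZT12, 0.8 and 1.2 at ZT16, and 2.0 and 1.5 at ZT20. Psmb9 was thus lower than Psmb6 in 11 of 12 libraries, with means of 1.97 ± 0.675 and 3.43 ± 1.07 rpbp (SD, n = 12 libraries).

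Psmb10 gave 5.4 and 3.5 rpbp at ZT0, 4.5 and 4.6 at ZT4, 4.2 and 2.9 at ZT8, 4.8 and 5.9 at ZT12, 2.8 and 3.2 at ZT16, and 2.9 and 1.8 at ZT20, and was below its constitutive partner Psmb7 in 12 of 12 libraries. Psmb5, with the chymotrypsin-like site, gave 0.9 and 0.4 rpbp at ZT0, 0.6 and 0.6 at ZT4, 0.7 and 0.3 at ZT8, 0.2 and 0.9 at ZT12, 0.9 and 0.8 at ZT16, and 1.1 and 0.9 at ZT20. Its partner Psmb8 gave 1.0 and 0.7 rpbp at ZT0, 1.8 and 1.8 at ZT4, 1.2 and 0.9 at ZT8, 1.7 and 2.3 at ZT12, 1.4 and 0.6 at ZT16, and 0.6 and 1.2 at ZT20. In this pair the order was the other way, and Psmb8 was above Psmb5 in 10 of 12 libraries. Values this low are coarse, since the table is rounded to 1 decimal and gives no read counts.

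**Figure D5:**
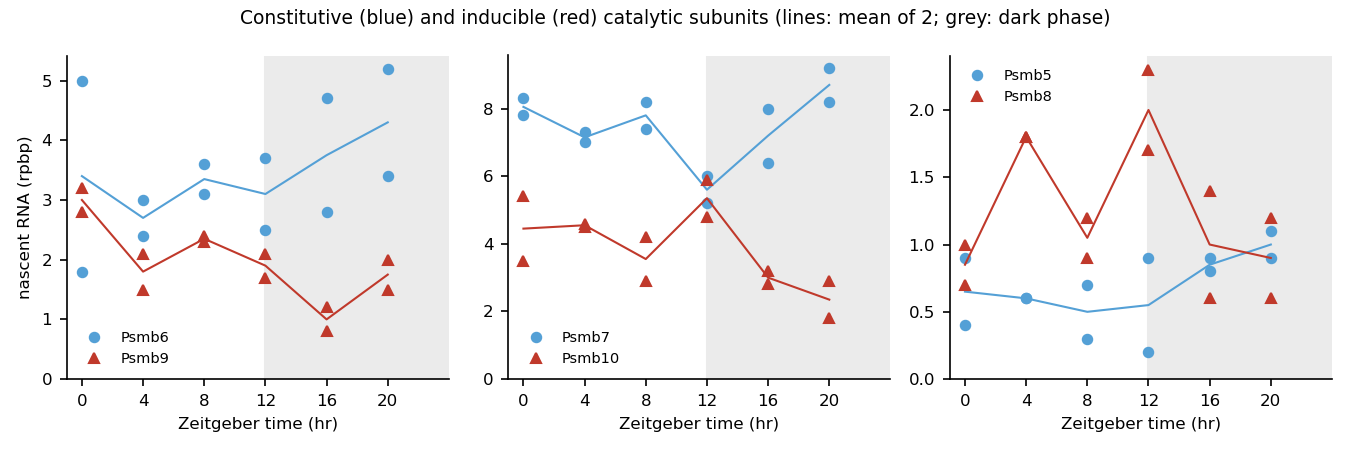
Nascent RNA in rpbp against Zeitgeber time in hr for the 3 catalytic beta genes (blue circles) and their interferon-inducible partners (red triangles), with the mean of 2 replicates as lines, the dark phase in grey and a separate scale in each panel. Psmb9 lay below Psmb6 in 11 libraries and Psmb10 below Psmb7 in 12, and Psmb8 lay above Psmb5 in 10.

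None of Psmb8, Psmb9 and Psmb10 exceeded 6 rpbp, so none was tested, and without the filter none was called rhythmic (permutation p = 0.236, 0.112 and 0.264). Their summed signal was 4.5 to 5.5 rpbp in the 4 libraries of ZT16 and ZT20 and 6.1 to 9.9 rpbp in the other 8, without overlap, a split that was set after the values were seen. The values of each of these genes alone did overlap between the same sets of libraries. The summed level of 12 leukocyte markers ranged from 30.9 rpbp (ZT8 replicate 2) to 79.1 rpbp (ZT8 replicate 1). It was 39.4 to 60.5 rpbp at ZT16 and ZT20, within its range of 30.9 to 79.1 rpbp in the other libraries, and none of the 12 was at 0 throughout. Hepatocyte markers summed to 780 to 1892 rpbp, 6 endothelial markers to 14.0 to 28.0, 6 stellate markers to 9.8 to 14.2 and 3 cholangiocyte markers to 0.2 to 1.0 rpbp, with Krt19 at a mean of 0.0833 rpbp. No marker gene was at 0 in every library. The part of the other cell types in the immunoproteasome signal was not tested.

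Of 19 genes of antigen processing and the interferon response, 15 were in the table and 8 were tested. Among these 3 were called rhythmic (Tap1, H2-D1 and Usp18), against 15.2% of all tested symbols. limma's F-test called 0 after adjustment, against 7.65% of symbols, and gave 3 an unadjusted p under 0.05, against 27.6%. Tap1, a peptide transporter gene on the strand opposite to Psmb9, lies 549 bp from it in the table's coordinates, but the annotated genes overlap at their starts, and reads there cannot be assigned to one of them. It gave 6.6 and 6.3 rpbp at ZT0, 8.2 and 5.9 at ZT4, 5.2 and 4.5 at ZT8, 3.7 and 5.2 at ZT12, 4.3 and 3.7 at ZT16, and 4.3 and 3.5 at ZT20. The 4 libraries of ZT0 and ZT4 were the highest (F24 0.64, maximum at ZT3.24, permutation p = 0.00789, adjusted p = 0.151). Usp18 had its maximum at ZT4.26 and H2-D1, whose reads can be shared with near-identical class I genes, at ZT13.8.

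Of 29 partner genes (assembly factors, ubiquitin receptors, regulators and ubiquitin genes), 24 were in the table and 15 were tested, and 4 were called rhythmic (Nfe2l2, Rad23b, Ubqln1 and Ubb), against 15.2% of all tested symbols. limma's F-test called Ubb, which encodes polyubiquitin, with an adjusted p of 0.0427, and 7.65% of symbols. Ubb gave 20.3 and 17.4 rpbp at ZT0, 13.8 and 12.0 at ZT4, 12.3 and 15.3 at ZT8, 6.3 and 10.0 at ZT12, 10.3 and 7.5 at ZT16, and 21.2 and 18 at ZT20. The 4 libraries of ZT20 and ZT0 were above all others, and the log2 difference between ZT0 and ZT12 was 1.14 ± 0.25 (SE, limma adjusted p = 0.032). Ubiquitin repeats are nearly alike in sequence between genes, so reads may be shared.

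The shuttle receptors Ubqln1 and Rad23b, which deliver ubiquitylated proteins to the proteasome, had their maxima at ZT22.6 (F24 0.85, permutation p = 0.00059, adjusted p = 0.0563) and ZT22.9 (F24 0.67, permutation p = 0.00157, adjusted p = 0.0873). Ubqln1 gave 10.5 and 11.1 rpbp at ZT0, 9.0 and 9.1 at ZT4, 7.0 and 7.9 at ZT8, 8.2 and 7.7 at ZT12, 8.7 and 7.8 at ZT16, and 10.8 and 9.8 at ZT20, again with ZT20 and ZT0 above all other libraries. Nfe2l2, a stress-activated relative of Nfe2l1, had its maximum at ZT3.09 (F24 0.51, permutation p = 0.0478, adjusted p = 0.298). Nfe2l1 itself was not called (12.1 to 18.2 rpbp, F24 0.084).

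As a check of the time labels, the clock genes Nr1d1, Dbp, Per2 and Arntl were all called rhythmic, with highest means at ZT8, ZT8, ZT12 and ZT20. The table gives no read counts, and the library totals that the study lists were not used here. The signal summed over all symbols ranged from 118342 to 160545 rpbp between libraries. All tested symbols lay a median of 0.20 below their own means on the log2 scale in ZT16 replicate 2, the largest such shift.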

How the data were processed

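Nuclei of mouse liver were lysed by the authors, RNA of the chromatin pellet was depleted of polyadenylated RNA, and libraries were read on a Genome Analyzer II. Per the labels and the methods of the study, reads were processed with CASAVA 1.7 and aligned to mm9 with TopHat. The deposited signal is the coverage per base pair of merged exons (rpbp) of uniquely mapped reads, without strand, scaled by the authors to equal read numbers and rounded to 1 decimal. ZT8 and ZT20 libraries were run in 2 lanes and merged, the others in 1. The authors' columns of rhythm statistics (F24, phase and p-value) were not used. The table held 21490 symbols and 27919 blank lines, which were dropped.

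Tests covered the 6284 symbols that exceeded 6 rpbp in 1 library or more. F24 used linear values and 100000 permutations, following the limits of the study. limma 3.58.1 (R 4.3.3) was fitted over 6 time points on log2(rpbp + 1), with Benjamini-Hochberg adjustment over all tested symbols. A fold change on this scale understates that of low genes. No count model was used, since the signal is not a count. Both tests were checked on simulated data with independent noise for each gene. Those data held no GC trend and no shift of whole libraries, so the check does not cover these. Exon GC content was known for 6216 tested symbols. Coordinates are mm9, counted from 1, for which 1 was added to the starts in the deposited table. Overlaps and strands came from GENCODE M1 (the same build). The alternatives were filters at 3 and 12 rpbp or none, rescaled libraries, removal of the median deviation in 20 bins of GC content, a replicate block, each library left out, log2 values, adjusted permutation p, limma's cosine test, lanes as a block and pseudocounts of 0.1 and 3 rpbp. Motifs were chosen after the members were known.

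Values by library are given for genes called by a test, the highest and lowest tested genes of each class and the catalytic subunits and their partners. Psmd4 was added after its values were seen. The members and gene lists were chosen with earlier results of these data known. Some genes that the rule for named genes selects are not reported here. The study describes the 12 samples as independent, and p-values measure the spread between them.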

Additional observations from a re-analysis of the deposited data

How the results depend on the processing

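The count of genes called rhythmic was 3 or 4 in 18 of 22 alternatives (4 with lanes as a block, where Psmb7 was added) and moved by more than 1.5 times in the other 4: it was 0 of 4 tested with a filter at 12 rpbp (fewer genes tested), 1 with the adjusted permutation p (Psma4), 0 with the cosine test of limma (3 genes at an unadjusted p under 0.05), and 3 to 7 when each library was left out, with 7 without ZT8 replicate 2, 4 without ZT0 replicate 1 (Psmd12 added) and 4 without ZT20 replicate 1 (Psma6 added). Psma4, Psmc2 and Psmd11 were called in each of the 19 alternatives of the F24 test that kept the unadjusted permutation p and tested them. Their lowest F24 (0.64, 0.55 and 0.50) came after removal of the GC trend. The cause of these changes was not tested. The counts by limma of genes differing between time points, between ZT0 and ZT12, between ZT4 and ZT16 and between ZT8 and ZT20 were 0 in all 21, 20, 20 and 20 alternatives, 0 to 0 when each library was left out, where a lone library was assumed to vary like the others. With a replicate block the counts were 3 for rhythm and 0 for the 4 limma tests. Deviations of same-numbered libraries from their time-point means correlated at -0.117 to 0.32 over 30 pairs, with 10 above 0.1. With 2 replicates the deviations of replicate 2 mirror those of replicate 1, so the pairs of both numbers give the same values. These correlations therefore cannot decide whether the replicate numbers pair the libraries. The deposited values hold no read counts, and 2 replicates limit every mean.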
